A study of Mus musculus with 4 samples.

Results

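Nectins, the nectin-like Cadm proteins, the poliovirus receptor Pvr and the lymphocyte receptors Tigit and Cd226 were followed in AdmMABs, mesoangioblasts of the adult mouse, which are progenitors found along the vessels of skeletal muscle. The 10 genes listed were Cadm1, Cadm2, Cadm3, Cadm4, Nectin1, Nectin2, Nectin3, Pvr, Tigit and Cd226, of 19938 genes with a probe set of their own. Of the 10, 9 had 1 probe set each that carried their symbol alone, and Cadm2 was not analysed here. The genes were selected from values of the same arrays: Tigit and Cadm4 were already known to be among the largest changes after loss of PW1, and Pvr was known to be higher. The values of Tigit, Cadm4 and Pvr are therefore given as a description with no p-value, while the other members were read from the test over all probe sets.

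The cells were a polyclonal population from the tibialis anterior of adult male C57/BL6 mice, kept growing in medium with fetal bovine serum. All were transduced with a lentiviral vector, which carried a short hairpin RNA against PW1 (shPW1, 2 arrays) or a control short hairpin that matches no mouse sequence (Ctl, 2 arrays). The 2 arrays of a group are separate RNA extractions, so the spread behind every p-value is that between extractions and may be technical only. PW1 was targeted with 1 hairpin, and its backbone was pLV-H1 per the methods, which name a control hairpin in another backbone, pLKO.1. Whether that control or another was in the Ctl cells is not stated, so hairpin, vector and loss of PW1 cannot be told apart.

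Proteins of this family carry immunoglobulin domains outside the cell and bind one another across cell contacts. Nectins and Cadm proteins hold neighbouring cells together, nectins through the adaptor afadin at adherens junctions and Cadm proteins through band 4.1 and MAGUK scaffolds in epithelia, myelinating glia and synapses. Pvr (CD155) and Nectin2 (CD112) also serve as ligands for receptors of T and NK cells: Cd226 activates these lymphocytes, and Tigit inhibits them. In muscle, nectin-based contacts are part of the adhesion between myogenic cells.

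Peg3, which encodes PW1, was lower in shPW1, with a log2 fold change of -2.34 (adjusted p = 0.00428, standard error 0.10). The deposited values are log2 expression, and the difference between the 2 replicate arrays had an SD over probe sets of 0.15 for Ctl and 0.166 for shPW1. In all, 9.28% of the genes tested were called at an adjusted p under 0.05, 4.93% higher and 4.35% lower in shPW1. An unadjusted p under 0.05 was found for 27.8% of the genes, and the analysis of variance of the study's methods, at its own thresholds, called 11.9%; these are the shares against which the counts of lists below are read. A gene that did not pass is not thereby shown to be unchanged. The shares of all genes cover genes of every level and were not matched to the level of a list. Level rank is the percent rank of a gene's mean over the 4 arrays among the probe sets tested, counted from the dimmest. Over all genes its median was 49.5%. Of the probe sets called, 54.2% were higher, or 68.2% with each array's median subtracted. Limma called 1983 probe sets, 86 when rows without a single symbol were tested too, and 0 when any array was dropped, so each call below rests on all 4 arrays.

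Markers were read against the label. Desmin (Des), the PDGF receptor gene Pdgfrb and smooth muscle actin (Acta2) were bright in Ctl, at mean log2 values of 10.5, 10.8 and 13.1. Other markers of that list were dimmer in Ctl, among them Alpl (5.85), Eng (5.32), Nt5e (5.22) and Rgs5 (3.70). Alpl encodes an alkaline phosphatase, and the study says that alkaline phosphatase can identify adult human mesoangioblasts in muscle. Of 15 measured mesoangioblast and pericyte markers, 8 were lower and 1 was higher in shPW1, with a median log2 fold change of -0.35 against -0.01 over all genes. Of all genes, 4.35% were called lower and 4.93% higher. The median level rank of the marker list was 63.7%, against 49.5% over all genes. Besides Peg3, the lower genes included Notch3 (-1.10), the aminopeptidase Anpep (-1.06), the proteoglycan NG2 (Cspg4, -0.66) and Pdgfrb (-0.45), and the hyaluronan receptor Cd44 was higher (0.35). Of 15 measured satellite cell and myoblast markers, 5 were lower and 2 were higher, against the same shares of all genes. Their median level rank was 74.8%. The widest change in that list was for Myod1, with mean log2 values of 9.08 in Ctl and 7.36 in shPW1. Its log2 fold change was -1.72 (adjusted p = 0.00503). Des is in both lists and was lower. In bulk RNA, fewer cells of a type and less RNA per cell cannot be told apart, and the part of these shifts in the values below was not tested.

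Tigit, the inhibitory receptor, was the member that was higher by the widest margin. Its log2 expression (probe set 10439527) was 7.08 and 6.72 in Ctl and 8.88 and 8.86 in shPW1. Both shPW1 arrays lay above both Ctl arrays, and the Ctl arrays stood further apart than the shPW1 arrays. The means were 6.90 ± 0.25 (SD, n = 2) and 8.87 ± 0.01 (SD, n = 2), which differ by 1.97 on the log2 scale (standard error 0.13), or 3.91-fold. Cd226, the activating receptor that shares its ligands with Tigit, was dim. Its probe set (10457168) read 3.84 and 3.96 in Ctl and 3.94 and 3.68 in shPW1, and its mean lay above those of only 15.6% of the probe sets tested. The groups overlapped, and the log2 fold change of -0.09 did not pass the test (standard error 0.11, adjusted p = 0.676, 95% confidence interval from -0.37 to 0.20). A level so low does not show that Cd226 was expressed in either group.

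Pvr, a ligand of both receptors, was higher in shPW1. Its log2 expression (probe set 10560709) was 8.41 and 8.27 in Ctl and 8.81 and 8.97 in shPW1, with no overlap between the groups. The means of 8.34 ± 0.10 (SD, n = 2) and 8.89 ± 0.11 (SD, n = 2) give a log2 fold change of 0.55 (standard error 0.09), or 1.47-fold. Nectin2, the other ligand that Tigit and Cd226 share, read 6.42 and 6.42 in Ctl and 6.31 and 6.42 in shPW1 (probe set 10560644). The second shPW1 array thus met the Ctl arrays, and the log2 fold change of -0.06 did not pass the test (standard error 0.07, adjusted p = 0.641, 95% confidence interval from -0.23 to 0.12). That interval holds no rise of the size seen for Pvr. The sign of the Nectin2 value turned when array medians were subtracted.

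**Figure D1:**
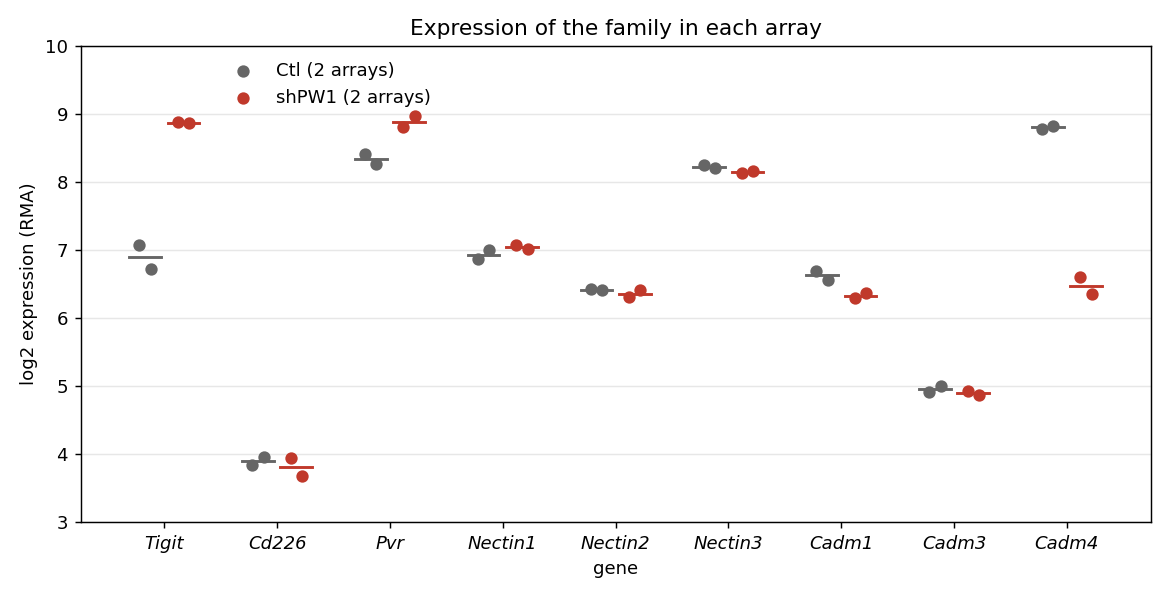
Log2 expression (vertical axis) of the 9 measured genes (horizontal axis). Grey points are the 2 Ctl arrays, red points the 2 shPW1 arrays, and short lines their means; the groups lie far apart for Tigit (6.90 and 8.87) and Cadm4 (8.81 and 6.48), less so for Pvr, and close together for the other genes.

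Cadm4, an adhesion molecule of the Cadm family known from myelinating Schwann cells, was lower in shPW1. Its log2 expression (probe set 10550915) was 8.79 and 8.83 in Ctl and 6.60 and 6.35 in shPW1. Both shPW1 arrays lay far below both Ctl arrays. Ctl averaged 8.81 ± 0.03 (SD, n = 2), and shPW1 averaged 6.48 ± 0.18 (SD, n = 2). The difference of -2.33 on the log2 scale (standard error 0.10) is 5.02-fold lower. The value for Peg3 itself, the targeted gene, was -2.34 on the same scale.

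The other Cadm genes with a probe set did not pass the test. Cadm1, a cell adhesion molecule of epithelia, germ cells and synapses, read 6.70 and 6.55 in Ctl and 6.299 and 6.36 in shPW1 (probe set 10585048). Its groups did not overlap, and the log2 fold change was -0.30 (standard error 0.08, 95% confidence interval from -0.49 to -0.10). The adjusted p of 0.0862 did not pass the threshold. It was 0.0162 with dim probe sets left out and 0.0393 with a trended robust prior. In other settings it did not pass, at 0.108 with a second quantile normalization, 0.157 with array medians subtracted and 0.191 with all rows tested. Cadm3, found mainly in neurons, read 4.91 and 4.998 in Ctl and 4.93 and 4.88 in shPW1 (probe set 10360349). These values overlap, and the log2 fold change of -0.05 did not pass the test (standard error 0.06, adjusted p = 0.679, 95% confidence interval from -0.22 to 0.12). Its sign also turned when array medians were subtracted.

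Nectin1 and Nectin3, which bind each other across contacts, differed little between the groups. Nectin1 read 6.87 and 6.995 in Ctl and 7.07 and 7.02 in shPW1 (probe set 10584615), or 0.12 on the log2 scale (adjusted p = 0.372, standard error 0.07, 95% confidence interval from -0.07 to 0.31). Nectin3 read 8.24 and 8.20 in Ctl and 8.13 and 8.16 in shPW1 (probe set 10439766), or -0.07 on the log2 scale (adjusted p = 0.485, standard error 0.06, 95% confidence interval from -0.23 to 0.08). Neither passed the test, although the arrays of the groups did not overlap in either gene.

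Of the 9 members, limma called 2 higher and 1 lower and left 6 uncalled, against 9.28% of genes called in either direction. The 3 are those whose values led to the selection, so nothing is read from this count. Of the 6 measured members that did not prompt the selection, limma called 0, 1 had an unadjusted p under 0.05 (Cadm1), and the methods' analysis of variance called 0, against 27.8% and 11.9% of all genes. In 7 of the 9 genes the arrays of the groups did not overlap, Nectin2 included by a hair, and this was also so for 55.5% of all genes. The median log2 fold change was -0.06 over the 9 members and -0.01 over all genes.

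**Figure D2:**
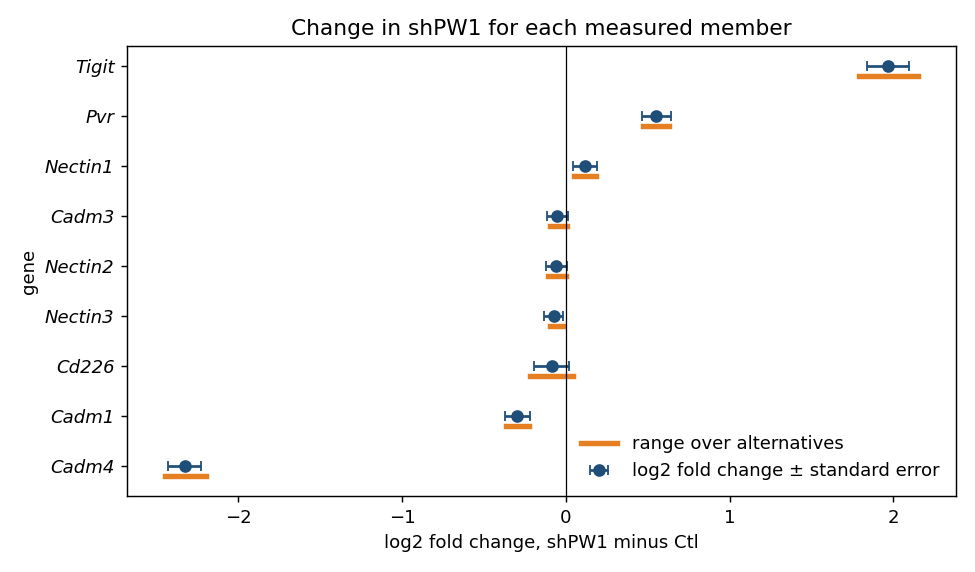
Log2 fold change of shPW1 over Ctl (horizontal axis) for each measured gene (vertical axis). Points are the fitted values with their standard error, and the orange bars give the lowest and highest value over the alternatives; Tigit kept values from 1.79 to 2.15, Pvr from 0.47 to 0.63 and Cadm4 from -2.45 to -2.20, and the bars of Cadm3, Nectin2 and Cd226 cross 0.

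Promoter sequence is shown for Tigit and Cadm4 because they were the members with the widest change in each direction. RefSeq windows (GRCm38.p6) were held for 6 of the 10 genes (Cadm2, Cadm3, Cadm4, Nectin2, Nectin3 and Tigit), and the 250 bases before each start were used. Each is printed 5′ to 3′ on the strand of its gene, with CpG dinucleotides in capitals. The Cadm4 window lies at chr7:24481773-24482022 on the plus strand, and the Tigit window at chr16:43664185-43664434 on the minus strand.
Cadm4: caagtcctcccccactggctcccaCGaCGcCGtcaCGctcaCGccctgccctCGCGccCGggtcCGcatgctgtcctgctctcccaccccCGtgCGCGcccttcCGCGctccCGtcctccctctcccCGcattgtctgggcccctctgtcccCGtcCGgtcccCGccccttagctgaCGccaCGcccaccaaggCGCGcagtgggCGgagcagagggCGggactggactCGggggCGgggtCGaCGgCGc
Tigit: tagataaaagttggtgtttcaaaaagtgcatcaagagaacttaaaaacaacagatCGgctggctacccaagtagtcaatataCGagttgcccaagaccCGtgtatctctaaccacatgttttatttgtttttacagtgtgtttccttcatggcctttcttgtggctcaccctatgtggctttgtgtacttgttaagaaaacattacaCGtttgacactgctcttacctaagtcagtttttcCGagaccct
The windows differ in base composition. That of Cadm4 holds 30 CpG and 75.2% G and C, and 94.1% of all 32851 windows hold fewer CpG. That of Tigit holds 5 CpG and 40.0% G and C, against a median of 6 CpG. Nectin3, whose level hardly differed between the groups, has 30 CpG like Cadm4. PW1 is a zinc finger protein that binds DNA, so its motif AGTNNCNNNTGGCT was searched on both strands. None of the 6 windows held it exactly or with 1 mismatch at a fixed letter, and 0.387% and 6.74% of all windows did. This says only that these letters are not in these windows.

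Genes beside the members in the genome were read from the same test. Tigit shares part of its span in the RefSeq gene table with Zbtb20, a zinc finger repressor read from the opposite strand, which was named after its value was seen. Zbtb20 read 6.61 and 6.57 in Ctl and 7.08 and 7.02 in shPW1, or 0.47 higher on the log2 scale (adjusted p = 0.0235, standard error 0.06). It was thus higher too, by less than Tigit, and whether probes of the 2 genes share signal was not tested. The call of Zbtb20 was lost with all rows tested (adjusted p = 0.0909) and with a replicate block (0.0638). Neighbours were taken in the order of gene starts, by which the long Zbtb20 gene is not adjacent although it overlaps. Those of Tigit were Gm9968 (log2 fold change 0.02, adjusted p = 0.913) and Mir568 (0.53, adjusted p = 0.0841), a microRNA gene that overlaps the Tigit span. Beside Cadm4, the urokinase receptor gene Plaur was higher by 1.02 (standard error 0.06, adjusted p = 0.00647), opposite in direction to Cadm4, and Zfp428 lay on the other side (0.14, adjusted p = 0.417). Ceacam19 (-0.13, adjusted p = 0.249) and Igsf23 (-0.02, adjusted p = 0.891), the neighbours of Pvr, did not pass. Of the neighbours of the other members, Aim2, a DNA sensor whose span overlaps that of Cadm3, was higher (0.60, adjusted p = 0.0225). With all rows tested, the calls of Aim2 (adjusted p = 0.0909) and Plaur (0.0525) were lost. With a replicate block that of Aim2 was lost (0.0505). The others did not pass: 4931429L15Rik (-0.29) and Gm10677 (-0.15) beside Cadm1, Ackr1 (-0.01) beside Cadm3, Trim29 (-0.18) and Thy1 (-0.17) beside Nectin1, Tomm40 (0.22) and Bcam (-0.01) beside Nectin2, Cd96 (0.12) and 6430553K19Rik (-0.26) beside Nectin3, and Rttn (0.10) and Dok6 (0.02) beside Cd226.

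Partners of the family were taken from lists of extracellular and of cytoplasmic partners. Of 26 measured partners, limma called 1 higher and 3 lower, against 9.28% of all genes called in either direction. The median log2 fold change was -0.07. An unadjusted p under 0.05 was found for 14 of the 26, or 53.8%, against 27.8% of all genes. The partners were bright, with a median level rank of 78.7% against 49.5% over all genes. The shares were not matched for level, so no excess of partners is read from them. The methods' analysis of variance called 5, against 11.9% of all genes. Tiam1, a Rac exchange factor that binds Cadm1, had log2 values of 7.40 and 7.14 in Ctl and 6.15 and 6.21 in shPW1. Its log2 fold change was -1.09 (standard error 0.10, adjusted p = 0.013). The band 4.1 protein Epb41l1 (-0.34, adjusted p = 0.0429) and vinexin (Sorbs3, -0.37, adjusted p = 0.0443) were lower by less, and the junctional scaffold ZO-1 (Tjp1, 0.39, adjusted p = 0.032) was higher. With array medians subtracted, the calls of Epb41l1 (adjusted p = 0.0762) and Sorbs3 (adjusted p = 0.074) were lost.

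Afadin (Afdn), the adaptor that links nectins to actin, read 8.04 and 7.98 in Ctl and 7.56 and 7.73 in shPW1. Its log2 fold change of -0.37 did not pass (standard error 0.08, adjusted p = 0.0635). It passed without the dim probe sets (adjusted p = 0.0105), with a second quantile normalization (0.0422) and with a trended robust prior (0.00377). It did not pass with array medians subtracted (0.0961), with a replicate block (0.123) or with all rows tested (0.16). The 4 partners called were among the 20 measured cytoplasmic ones, of which 12 (60%) had an unadjusted p under 0.05. Over all genes, 9.28% were called and 27.8% had an unadjusted p under 0.05. The median level rank was 81.4% for the cytoplasmic and 35.9% for the extracellular partners. The difference between the lists was not tested. Of the 6 measured extracellular partners limma called 0, and 2 (33.3%) had an unadjusted p under 0.05. The methods' analysis of variance called 1 of the 6, against 11.9% of all genes. Nectin4 (log2 fold change -0.07, adjusted p = 0.487), the Cadm1 receptor Crtam (0.11, adjusted p = 0.513) and the Pvr receptor Cd96 (0.12, adjusted p = 0.259) were among these, and Pvrig was not analysed here.

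**Figure D3:**
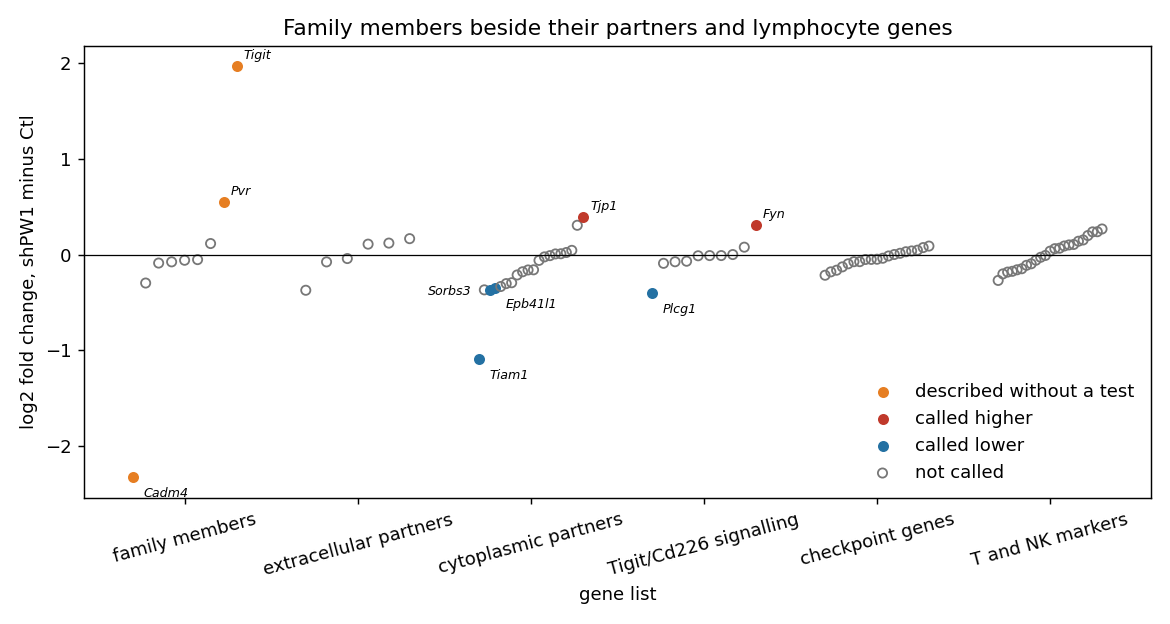
Differences between shPW1 and Ctl as log2 fold changes (vertical axis) for the family and 5 lists of related genes (horizontal axis). Each point is 1 gene, orange for the 3 genes described without a test. Other points are red or blue where called higher or lower, and open where not called. Tigit (1.97) and Cadm4 (-2.33) lie outside the span of every other list shown, whose widest value is -1.09 for Tiam1. Both were known to be among the largest changes before the family was chosen, so nothing is read from this gap.

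The setting of Tigit among lymphocyte genes was described by marker lists. Of 23 measured T and NK lymphocyte markers limma called 0, 4 had an unadjusted p under 0.05 (17.4%, against 27.8% of all genes), and the methods' analysis of variance called 1. These markers were dim, with a median level rank of 26.2% against 49.5% over all genes. The shares were not matched for level, so no shortfall is read from them. Their linear values summed to 549 and 570 in Ctl and to 565 and 531 in shPW1, so the groups overlapped. No member of that list moved beyond 0.27 on the log2 scale in either direction. The pan-leukocyte gene Ptprc (CD45) had mean log2 values of 3.67 in Ctl and 3.94 in shPW1, Cd3e 5.41 and 5.26, Cd247 4.82 and 4.64, Cd2 4.44 and 4.68, Cd4 4.67 and 4.49, Ncr1 3.79 and 3.93, and the regulatory T cell factor Foxp3 5.34 and 5.07. Ptprc was uneven in shPW1, at 4.23 and 3.66, while Tigit read 8.88 and 8.86 in the same arrays.

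Other checkpoint genes were read beside Tigit. Of 19 measured checkpoint receptors and ligands limma called 0, 2 had an unadjusted p under 0.05 (10.5%, against 27.8% of all genes), and the methods' analysis of variance called 0. These genes were dim too, with a median level rank of 23.2%. Their log2 fold changes ran from -0.21 for PD-1 (Pdcd1) to 0.09 for Cd244a, with a median of -0.05, and the PD-1 ligand Cd274 was at -0.07 (adjusted p = 0.629). Of 10 measured genes that act below Tigit and Cd226, limma called 1 higher and 1 lower, against 9.28% of all genes called in either direction. In this list, whose median level rank was 35.5%, an unadjusted p under 0.05 was found for 2 (20%, against 27.8% of all genes). The methods' analysis of variance called 2, against 11.9% of all genes. The kinase Fyn was higher (0.31, adjusted p = 0.04995) and the phospholipase Plcg1 was lower (-0.40, adjusted p = 0.03). These 2 genes act below many receptors. The call of Fyn was lost with a second quantile normalization (adjusted p = 0.0568). With all rows tested, the calls of Fyn (adjusted p = 0.135) and Plcg1 (0.102) were both lost. They were also lost with a replicate block (0.111 and 0.0823).

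Markers of other cells that could be in the cultures were counted too. Of 15 macrophage and 12 endothelial markers limma called 0 and 0, with 0 and 0 at an unadjusted p under 0.05 (27.8% of all genes) and 0 and 0 by the methods' analysis of variance. The median level ranks of these lists were 26.4% and 35.3%, against 49.5% over all genes. Schwann cell and neural markers were read because Cadm4 and Cadm3 are genes of those cells. Of 12 measured, limma called 1, against 9.28% of all genes. In this list 2 had an unadjusted p under 0.05 (16.7%, against 27.8% of all genes). The methods' analysis of variance called 1, against 11.9% of all genes. The gene called by limma was the tubulin gene Tubb3, which was lower (log2 fold change -0.67, adjusted p = 0.0245). The Schwann cell factor Sox10 had mean log2 values of 5.76 in Ctl and 5.74 in shPW1, and the brighter Pmp22 had 10.9 and 10.8. The median log2 fold change of the list was -0.11, against -0.01 over all genes, and its median level rank was 40.1%. In 8 of the 12 the arrays of the groups did not overlap, as in 55.5% of all genes.

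Genes whose pattern over the 4 arrays lay nearest to that of a member were found by Euclidean distance after the mean of the Ctl arrays was subtracted. For Tigit these were Serpinb2 (distance 0.167, log2 fold change 1.85), Cfap69 (0.269, 2.01) and Gpr176 (0.301, 1.78). For Cadm4 they were Igfbp2 (distance 0.213, log2 fold change -2.40), Hpgd (0.247, -2.20) and Spon2 (0.29, -2.17). For Pvr they were Dennd6a (distance 0.031, log2 fold change 0.56), Polq (0.0384, 0.58) and Tiparp (0.0406, 0.55). With 4 arrays in 2 groups, the distance mostly measures how close the size of the change is.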

How the data were processed

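RNA of growing Ctl and shPW1 AdmMABs was hybridized to Affymetrix Mouse Gene 1.0 ST arrays, 1 array per extraction. RMA normalization was done by the authors in Partek Genomics Suite (version 6.4 per the submitters' notes on processing), and the log2 values they deposited fill 35556 rows, with no detection call, so the number of arrays limits the precision. Of these rows, 21789 had exactly 1 gene symbol and were tested with limma 3.58.1 in R 4.3.3 (lmFit and eBayes, two-sided, 2 residual and 2.72 prior degrees of freedom), with Benjamini-Hochberg adjustment over all of them. A gene was read from its brightest probe set by the mean over 4 arrays. Symbols of 21698 probe sets were matched to the RefSeq gene table (GRCm38.p6). The test was checked on simulated arrays.

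The members and the gene lists were chosen with earlier results of these data known. Genes were named by rule: Peg3 and all members; up to 6 called genes per partner, signalling or checkpoint list by size of change; Nectin4, Afdn, Crtam, Cd96, Pvrig, Cd274 and Fyn, and of the lymphocyte markers Ptprc, Cd3e, Cd2, Cd4, Ncr1, Cd247 and Foxp3, whatever their value; the nearest measured gene on each side of a member; and the 3 nearest patterns to Tigit, Cadm4 and Pvr. Zbtb20, Pdcd1, Cd244a and the markers of other cell types were named after their values were seen. The alternatives were dim probe sets left out, testing of all rows, array medians subtracted, quantile normalization repeated, a robust prior with a trend, the methods' analysis of variance (p under 0.05 and fold over 1.2, or adjusted), a replicate block, and each array dropped in turn.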

Additional observations from a re-analysis of the deposited data

How the results depend on the processing

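Tigit, Pvr, Cadm4, Cadm1, Nectin1 and Nectin3 kept the sign of their log2 fold change under every alternative run; the size of Tigit lay between 1.79 and 2.15. Counts of calls moved more. The members called in the main setting were the 3 whose values led to the selection, so the following counts are a description. Of the members, 1 was called with all rows tested, 0 with the adjusted analysis of variance and 0 with any array left out. Of the members that did not prompt the selection, 1 passed without the dim probe sets and 1 with a trended robust prior. Partners called, 4 in the main setting, were 11 with dim probe sets left out and 11 with the trended robust prior. They were 2 with array medians subtracted, 0 with all rows tested and 0 with the adjusted analysis of variance. In the 2 settings with 11, calls over all probe sets rose as well, so the rise is not read as a result about the partners. The analysis of variance at its own thresholds called 1 lymphocyte marker. Probe sets called in all, 1983 in the main setting, were 4304 with dim probe sets left out, 4713 with the trended robust prior, 86 with all rows tested, 2 with the adjusted analysis of variance and 0 with any array left out. Leaving out an array leaves 1 residual degree of freedom and a lone sample assumed to vary like the other group; the cause of the other shifts was not tested.

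The replicate numbers are shared by the groups, but nothing in the labels says that they pair the samples, and the deviations of same-numbered arrays correlated at -0.105 over probe sets. With the replicate block, 514 probe sets, 2 members and 1 partner were called. With crossed pairing, chosen after seeing the data, 437 probe sets, 2 members and 1 partner were called.

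No value that changed sign was called in the main setting. With array medians subtracted they were those of Cadm3 (0.00703), Nectin2 (0.000425), Ackr1 (0.0485), Bcam (0.045) and Igsf23 (0.037), and with a second quantile normalization those of Bcam (0.0389) and Igsf23 (0.0144). With 1 array left out at a time, values ran from -0.0778 to 0.119 for Gm9968, from -0.0433 to 0.0239 for Ackr1, from -0.0497 to 0.0234 for Bcam, from -0.0835 to 0.0412 for Igsf23, from -0.331 to 0.0374 for Gm10677, from -0.218 to 0.0441 for Cd226, from -0.0157 to 0.554 for Ptprc and from -0.118 to 0.4 for Ncr1. Of these, Cd226, Gm10677 and Ncr1 turned without shPW1 replicate 2, Ptprc without shPW1 replicate 1 and Gm9968 without Ctl replicate 1. An average over probe sets in place of the brightest gave no other value, since each member has 1 probe set.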

Other observations

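Plaur and Cadm4 are adjacent among the measured genes and changed in opposite directions, by 1.02 and -2.33 on the log2 scale. Of the 18 neighbours of members by order of gene starts, 2 were called, Plaur and Aim2, against 9.28% of all genes. Zbtb20, which overlaps Tigit but is not adjacent by start, was called too.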
